A study of Homo sapiens with 8 samples.

Results

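The insulin-like growth factor (IGF) axis was examined in A673, a long-established line of Ewing Sarcoma cells, after treatment with JIB-04, a small molecule inhibitor of the Jumonji family of histone demethylases. It was taken as 10 genes, chosen by symbol from a table of 65975 gene identifiers: the ligand IGF1, the receptors IGF1R, INSR and IGF2R, the adaptors IRS1 and IRS2, and the binding proteins IGFBP2, IGFBP3, IGFBP4 and IGFBP5. Each symbol had a value in every library. Polyadenylated RNA was sequenced from 4 libraries of cells given vehicle (DMSO) and 4 libraries of cells given 2 μM JIB-04, both for 36 h in medium with fetal bovine serum. No group without vehicle, no other dose and no other time was analysed here. All libraries come from 1 cell line. The methods say that the treatment had 4 replicates per group, but neither they nor the labels say whether these were independent cultures. The p-values below therefore reflect only how far these libraries spread, which may be technical.

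IGF1 and IGF2 are secreted ligands that bind IGF1R, a receptor tyrosine kinase. IGF1R and the insulin receptor INSR hand the signal to the docking proteins IRS1 and IRS2, and from there to the PI3K-AKT-mTOR and RAS-ERK cascades. IGF2R, the cation-independent mannose 6-phosphate receptor, carries no kinase and takes IGF2 to the lysosome, as it does enzymes bearing mannose 6-phosphate. The IGF binding proteins hold the ligands outside the cell and are cut by proteases such as PAPPA. In Ewing Sarcoma, IGF1R signaling is known as a growth and survival pathway, and IGFBP3 is known as a gene held down by the EWSR1-FLI1 fusion.

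The values are FPKM, mapped fragments scaled for the length of the transcript and the size of the library, so levels may be compared between genes. The summed FPKM was 1346289 to 1370436 in the vehicle libraries and 1175407 to 1237186 in the JIB-04 libraries, and mRNAs of the mitochondrial genome took 9.60 to 10.2% and 3.60 to 4.33% of it. Read numbers per library are not stated, and relative depths read from the steps of the lowest values ran from 0.766 to 1 of the deepest library. All 8 Ewing Sarcoma marker genes listed for the check were above the filter, among them CD99 (1160 FPKM with vehicle, 599 with JIB-04) and NKX2-2 (151.2 and 88.9 FPKM). With JIB-04, LIPI and FLI1 were the 2 that rose, 5 of the 8 fell, and NR0B1 missed the threshold. Over all genes tested, 34.2% were called higher and 38% lower. Of 15 marker genes of other cell types, PTPRC, CD3E, CDH5, EPCAM, CDH1, ALB and LUM stayed under 1 FPKM in every library, and the summed level of the 15 was 328 to 349 FPKM with vehicle and 329 to 346 with JIB-04, most of it KRT18 and KRT8. KRT8, a keratin gene of epithelia, was higher with JIB-04 (23.2 to 71.5 FPKM), as were ITGAM (0.295 to 2.39) and SNAP25 (4.17 to 15.4), while KRT18 and DCN were lower. ITGAM passed the filter only through the JIB-04 libraries, and PECAM1, APOA1 and PDGFRA were below the filter. The part of these shifts in the results below was not tested, and in bulk RNA fewer cells of a type and less RNA per cell cannot be told apart.

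The genes lie on 8 chromosomes (GRCh38, GENCODE 29), with IRS1, IGFBP2 and IGFBP5 sharing chromosome 2. RefSeq promoter windows (GRCh38.p14, 250 bases before a gene's start) were found for all 10 genes and were searched on both strands for the FOXO motif GTAAACA, the hypoxia response core in its first form ACGTG and its second form GCGTG, the doubled ETS core GGAAGGAA, the E-box CACGTG, the TATA motif TATAAA and the GC box GGGCGG. The stretches below are shown because they belong to the 3 genes that were at least 2-fold higher with JIB-04 and carry one of the rarer motifs. Motif letters are in capitals and each line runs 5′ to 3′ on the gene's strand.
IGF2R, chr6:159968932-159969081, plus strand, E-boxes in capitals: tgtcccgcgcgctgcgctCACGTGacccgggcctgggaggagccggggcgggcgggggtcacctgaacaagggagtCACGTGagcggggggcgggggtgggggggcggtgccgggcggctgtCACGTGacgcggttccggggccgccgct
IGF1, chr12:102481938-102481997, minus strand, FOXO motif in capitals: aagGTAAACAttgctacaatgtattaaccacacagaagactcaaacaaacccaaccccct
IGFBP4, chr17:40443390-40443449, plus strand, TATA motif in capitals: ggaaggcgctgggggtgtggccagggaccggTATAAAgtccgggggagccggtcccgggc
The IGF2R window held 3 E-boxes, beginning 132, 74 and 28 bases before the start. An E-box was present in 6.34% of 35116 RefSeq promoter windows, and 28 windows, or 0.0797%, held at least 3. The 6 hypoxia response cores of the IGF2R window are the same letters, since each E-box holds that core on both strands. The first of 2 IGF1 windows held 1 FOXO motif 247 bases before the start, against 2.98% of all windows with at least 1. The IGFBP4 window held TATAAA 29 bases before the start, a motif found in 10.7% of all windows. The doubled ETS core, found in 3.06% of all windows, was in no window of the 10 genes. The windows of IGF1R, IRS1, IGF2R, INSR, IRS2, IGFBP3 and IGFBP4 had a GC content of 71.6 to 81.2%, against a median of 58% over all windows. The GC content was 61.2% in the IGFBP5 window, 56.8, 69.2 and 56.4% in the 3 IGFBP2 windows, and 39.6 and 44% in the IGF1 windows. A match is a description of the letters and no evidence of binding.

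Transcripts of 8 of the 10 genes were higher with JIB-04 and those of IGF1R and IGFBP2 were lower (limma on log2(FPKM + 0.5), Benjamini-Hochberg adjusted p below 0.05 over the 17460 genes that averaged 1 FPKM or more). Over all genes tested, 34.2% were called higher and 38% lower. IGF1, IGF2R, IGFBP3 and IGFBP4 were at least 2-fold higher, as were 13.1% of all genes. IGFBP3 passed the filter on level only through the JIB-04 libraries. Among the other 9 genes, 7 were higher, 2 were lower and 3 were at least 2-fold higher, and the median log2 fold change was 0.72, against -0.066 over all genes. The 4 JIB-04 values of every one of the 10 genes lay outside the range of the 4 vehicle values, which was so for 67.3% of all genes tested. The exact two-sided permutation test gave p = 0.0286 for each of the 10, the smallest p that 4 against 4 libraries can give.

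**Figure D1:**
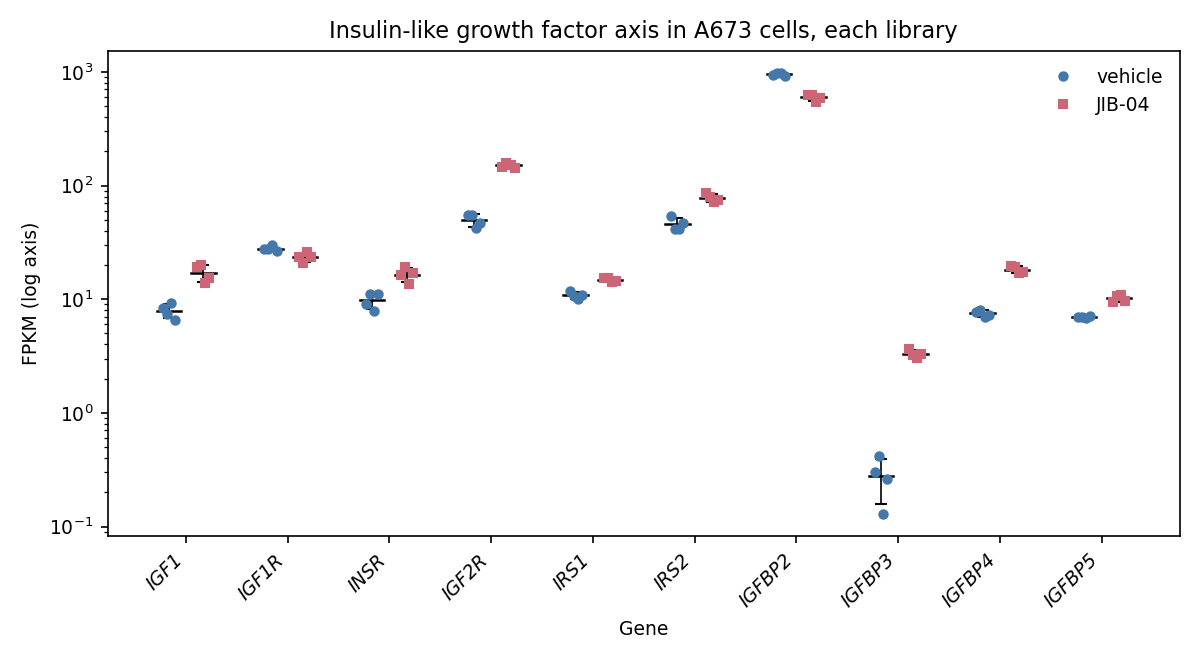
FPKM (log axis) of the 10 genes in each of the 8 libraries, vehicle as circles and JIB-04 as squares, with the mean as a line and the SD as bars (n = 4 each). IGFBP2 stands above all other genes in both groups, at 956 and 597 FPKM, and IGFBP3 below all others, at 0.277 and 3.32 FPKM.

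IGF1, the ligand, was at 8.38, 7.46, 9.18 and 6.60 FPKM in the vehicle libraries and at 19.2, 20.2, 13.9 and 15.2 FPKM in the JIB-04 libraries. The lowest JIB-04 library was above the highest vehicle library, and JIB-04 libraries 1 and 2 were above libraries 3 and 4. The mean rose 2.16-fold, from 7.91 ± 1.12 to 17.1 ± 3.04 FPKM (SD, n = 4), a log2 fold change of 1.06 (SE 0.14, adjusted p = 0.000103). IGF2, the other ligand and the one that IGF2R clears, was at 0.140 FPKM with vehicle and 0.266 FPKM with JIB-04, below the filter and therefore not tested. Insulin was listed at 0 in all 8 libraries. IGF1 was thus the ligand transcript with the highest level of the 3 in both groups.

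IGF1R, the receptor kinase of the axis, had 27.6, 27.5, 29.8 and 26.3 FPKM with vehicle and 23.4, 20.8, 26.2 and 23.5 FPKM with JIB-04. The highest JIB-04 library was just below the lowest vehicle library, at 26.20 against 26.28 FPKM. The mean went from 27.8 ± 1.48 to 23.5 ± 2.22 FPKM, a log2 fold change of -0.24 (SE 0.08, 95% interval -0.42 to -0.07, adjusted p = 0.0174). This call depended on the scaling of the libraries and on 1 of them. Rescaled to a sum of 1000000 per library (TPM), IGF1R was at 20.5 ± 1.03 with vehicle and 19.4 ± 2.20 with JIB-04, the groups overlapped, and the log2 fold change was -0.08 (adjusted p = 0.403). TPM also moves the middle value of the log2 fold changes of all tested genes up by 0.15. Without vehicle library 3, the highest, the log2 fold change of IGF1R was -0.21 (adjusted p = 0.0534).

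INSR, the insulin receptor, went the other way. It was at 9.04, 11.1, 7.85 and 11.1 FPKM with vehicle and at 16.2, 19.01, 13.6 and 16.9 FPKM with JIB-04. Its mean rose 1.68-fold, from 9.79 ± 1.62 to 16.4 ± 2.22 FPKM (log2 fold change 0.72, SE 0.14, adjusted p = 0.000947). INSR and IGF1R chains can pair into hybrid receptors, so their ratio in the same library, which no rescaling of a library changes, was also taken. IGF1R over INSR was 3.05, 2.47, 3.80 and 2.36 in the vehicle libraries and 1.44, 1.09, 1.92 and 1.39 in the JIB-04 libraries. The ranges did not overlap, and the mean ratio was 2.92 ± 0.659 with vehicle and 1.46 ± 0.344 with JIB-04. The sum of both transcripts was 37.6 ± 0.812 FPKM with vehicle and 39.9 ± 0.375 FPKM with JIB-04. INSRR, the third receptor of the family, was at 0.0640 and 0.111 FPKM and was not tested.

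IGF2R had the largest change of the 3 receptors. It was at 55.2, 54.6, 41.9 and 47.0 FPKM in the vehicle libraries and at 147, 157, 153 and 144 FPKM in the JIB-04 libraries, with a wide gap between the groups. Its mean rose 3.02-fold, from 49.7 ± 6.40 to 150.03 ± 5.94 FPKM (log2 fold change 1.59, SE 0.09, adjusted p = 2.65e-07). The rise exceeded that of 93.6% of all genes tested. A processed pseudogene on the same strand, AL353625.1, lies within the IGF2R span and went from 2.26 to 11.0 FPKM, and whether the 2 share reads was not tested. The antisense transcript of the locus, AIRN, was listed at 0. IGF2R over IGF1R was 1.404 to 2.001 across the vehicle libraries and 5.83 to 7.56 across the JIB-04 libraries, with means of 1.80 ± 0.278 and 6.44 ± 0.767.

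**Figure D2:**
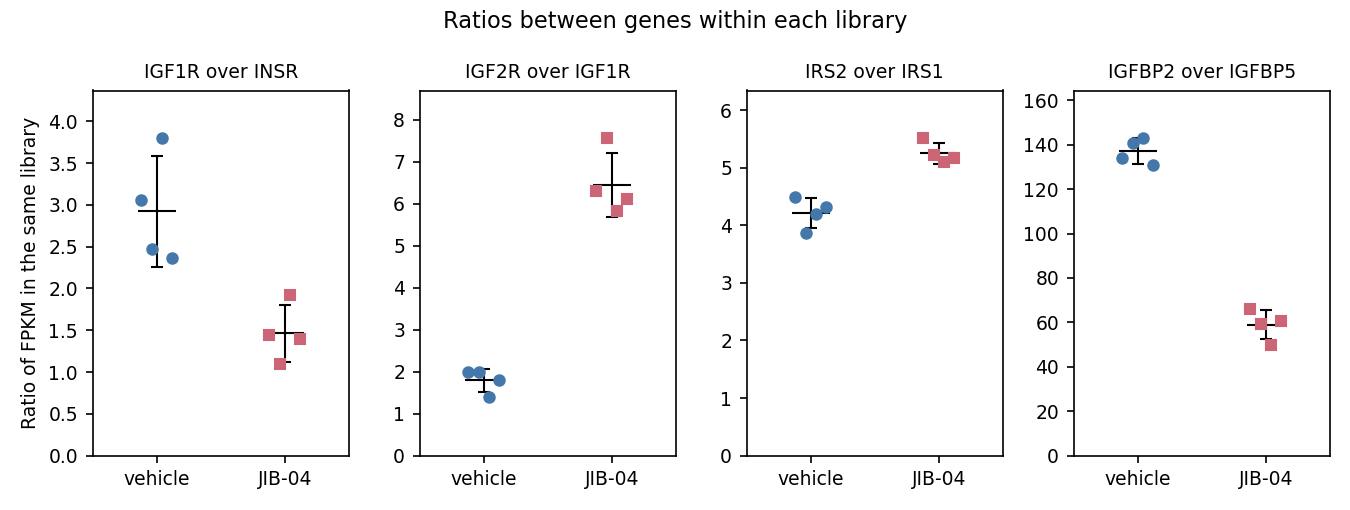
Ratios of FPKM between pairs of genes in the same library, with the mean as a line and the SD as bars (n = 4 each). The ranges of vehicle and JIB-04 libraries do not overlap in any of the 4 panels; the mean of IGF1R over INSR is 2.92 with vehicle and 1.46 with JIB-04, and that of IGF2R over IGF1R 1.80 and 6.44.

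Both docking proteins were higher with JIB-04. IRS1 was at 11.9, 10.7, 9.97 and 10.9 FPKM with vehicle and at 15.4, 15.3, 14.1 and 14.3 FPKM with JIB-04, a rise of 1.36-fold from 10.9 ± 0.797 to 14.8 ± 0.661 FPKM (log2 fold change 0.43, SE 0.07, adjusted p = 0.000468). IRS2 was at 53.4, 41.5, 41.9 and 47.0 FPKM with vehicle and at 85.1, 79.8, 72.0 and 74.1 FPKM with JIB-04, a rise of 1.69-fold from 45.9 ± 5.58 to 77.8 ± 5.91 FPKM (log2 fold change 0.76, SE 0.09, adjusted p = 4.65e-05). IRS2 was the more abundant of the pair in all 8 libraries, and IRS2 over IRS1 was 3.87 to 4.49 with vehicle and 5.10 to 5.51 with JIB-04. IRS4, a further member of the family, was listed at 0 in 7 of the 8 libraries and at 0.0137 FPKM in the other.

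The binding proteins split. IGFBP2, the most abundant of them, was at 941, 974, 980 and 929 FPKM with vehicle and at 627, 630, 545 and 584 FPKM with JIB-04. All JIB-04 libraries were far below all vehicle libraries. The mean was 1.60-fold lower, 956 ± 24.9 against 597 ± 40.5 FPKM (log2 fold change -0.68, SE 0.05, adjusted p = 1.77e-06). Only 21.7% of all genes tested had a lower log2 fold change.

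IGFBP3 was nearly silent with vehicle, at 0.302, 0.416, 0.129 and 0.261 FPKM, and was at 3.63, 3.24, 3.07 and 3.32 FPKM with JIB-04. The JIB-04 libraries were close to each other and all above 3 FPKM. The ratio of the means, 3.32 ± 0.236 over 0.277 ± 0.118 FPKM, was 11.97. The log2(FPKM + 0.5) used in the test shrinks the change of so low a gene, and there the log2 fold change was 2.31 (SE 0.16, adjusted p = 9.97e-07). It was 3.24 with 0.1 and 1.76 with 1 added in place of 0.5, so its size depends on that choice and its direction does not. The gene was tested only because its JIB-04 libraries lifted its mean over the filter. With no filter on level, its adjusted p was 5.06e-06 in the same limma test. IGFBP3 remained the lowest of the 10 genes with JIB-04.

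IGFBP4, a binding protein known as a substrate of PAPPA, was at 7.77, 8.03, 6.91 and 7.23 FPKM with vehicle and at 19.4, 19.04, 16.8 and 17.3 FPKM with JIB-04. It rose 2.42-fold, from 7.48 ± 0.506 to 18.1 ± 1.28 FPKM (log2 fold change 1.22, SE 0.08, adjusted p = 6.54e-07). IGFBP5 was at 7.03, 6.92, 6.85 and 7.09 FPKM with vehicle and at 9.50, 10.6, 10.9 and 9.67 FPKM with JIB-04. It rose 1.46-fold, from 6.97 ± 0.107 to 10.2 ± 0.682 FPKM (log2 fold change 0.51, SE 0.07, adjusted p = 0.000148). The vehicle libraries varied by 1.54% of their mean for IGFBP5, the smallest spread of the 10 genes, so a moderate change was well outside it.

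The opposite changes of IGFBP2 and IGFBP5 involved neighbouring genes. IGFBP2 (chr2:216632828-216664436, plus strand) and IGFBP5 (chr2:216672105-216695525, minus strand) face each other tail to tail, 7668 bases apart. IGFBP2 over IGFBP5 was 131 to 143 across the vehicle libraries and 50.0 to 66.0 across the JIB-04 libraries. IGFBP3 (chr7:45912245-45921874, minus strand) has IGFBP1 18576 bases away, and IGFBP1 was listed at 0 in all 8 libraries.

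Because IGFBP2 was so abundant, the summed level of the 4 binding proteins followed it. The sum was 971 ± 24.8 FPKM with vehicle and 628 ± 41.5 FPKM with JIB-04. IGFBP2 made up 98.5% ± 0.0822 of the sum with vehicle and 94.96% ± 0.207 with JIB-04 (SD, n = 4). IGFBP4 made up 0.772% ± 0.0551 and 2.89% ± 0.0595. The 3 rising binding proteins were thus a small part of the total in both groups.

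**Figure D3:**
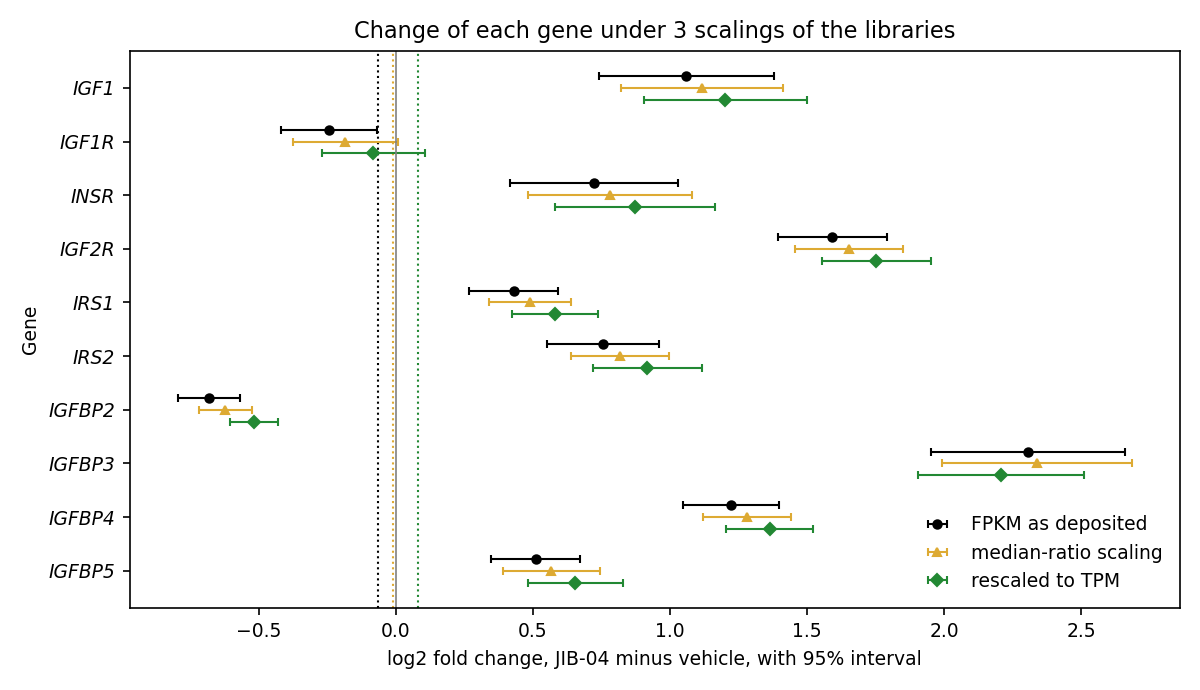
Log2 fold change (JIB-04 minus vehicle) of each gene with its 95% interval, with FPKM as deposited, after median-ratio scaling and after rescaling to TPM, on log2(value + 0.5); dotted lines give the median of all genes under each scaling. Of the 10 genes, IGF1R alone has intervals that include 0, after median-ratio scaling and in TPM, where it is at -0.08.

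In the vehicle group the order of levels was IGFBP2, IGF2R, IRS2, IGF1R, IRS1, INSR, IGF1, IGFBP4, IGFBP5 and IGFBP3. The values of IGF2R and IRS2 overlapped, as did those of each pair of neighbours from IRS1 down to IGFBP5, so these were not told apart by level. With JIB-04 the order was IGFBP2, IGF2R, IRS2, IGF1R, IGFBP4, IGF1, INSR, IRS1, IGFBP5 and IGFBP3. There IGF2R and IRS2 no longer overlapped, and neighbours overlapped only from IGFBP4 down to IRS1. IGF1R kept the fourth place in both groups.

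Of the ligands, carriers and receptors outside the 10 genes, 1 of 9 passed the filter. This was IGFBP6, a binding protein that prefers IGF2, which was at 2.98, 3.26, 2.996 and 3.10 FPKM with vehicle and at 8.63, 6.33, 7.23 and 6.79 FPKM with JIB-04 (log2 fold change 1.10, SE 0.11, adjusted p = 1.07e-05). IGFBPL1 was at 0.679 and 0.303 FPKM. IGFBP7 and IGFALS, which encodes the acid labile subunit of the circulating IGF complex, stayed under 0.15 FPKM in every library.

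Among 9 genes for proteases that cut the binding proteins and for inhibitors of those proteases, 6 were tested. With JIB-04, 5 were higher and 1 was lower, against 34.2% and 38% of all genes tested. STC1, whose product inhibits PAPPA, was at 15.1, 15.7, 15.3 and 16.0 FPKM with vehicle and at 107, 102, 105 and 107 FPKM with JIB-04 (log2 fold change 2.73, SE 0.04, adjusted p = 4.42e-10). Its relative STC2 went from 23.6 ± 1.75 to 63.8 ± 9.01 FPKM (log2 fold change 1.41, adjusted p = 1.66e-06). PRSS23, a serine protease, went from 4.51 ± 0.369 to 20.03 ± 1.26 FPKM. The remaining 2 that rose, PAPPA (27.4 ± 3.36 to 40.3 ± 2.71 FPKM, log2 fold change 0.55, adjusted p = 0.000430) and ADAM9 (28.9 ± 5.34 to 78.1 ± 9.95 FPKM), are named because their values had been seen. Both the protease and its stanniocalcin inhibitors were therefore higher, and the log2 fold changes of STC1 and STC2 were above that of PAPPA. ADAM28 was lower (2.10 ± 0.358 to 0.694 ± 0.238 FPKM, log2 fold change -1.13) and passed the filter only through the vehicle libraries.

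Of 20 receptor adaptors and inhibitors, 16 were tested, and JIB-04 raised 9, lowered 5 and left 2 short of the threshold. Over all genes tested the shares were 34.2% higher and 38% lower. PTPN1, a phosphatase that acts on the insulin receptor, went from 44.0 ± 0.907 to 62.9 ± 0.855 FPKM (log2 fold change 0.51, adjusted p = 2.57e-06). SH2B3 and SOCS3, both brakes on receptor signaling, were higher by log2 fold changes of 0.45 and 0.81. The docking proteins GAB1 (12.04 ± 1.49 to 7.12 ± 0.601 FPKM, log2 fold change -0.72) and GAB2 (-0.36) were lower, unlike IRS1 and IRS2. RACK1, a ribosomal scaffold known to bind IGF1R, was lower by a log2 fold change of -0.20. SHC2, counted as higher, passed the filter only through the JIB-04 libraries, and without it 8 of 15 genes were higher and 5 lower. SHC1 held a placeholder in place of a value and could not be used.

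In the PI3K, AKT and mTOR list, 28 of 29 genes were tested, with 11 higher, 14 lower and 3 short of the threshold. These counts stand beside 34.2% higher and 38% lower over all genes tested. The list moved both ways, with a median log2 fold change of -0.10. PIK3CD passed the filter only through the JIB-04 libraries, and without it 10 of 27 genes were higher and 14 lower. TSC1, a brake on mTORC1, GSK3B, a kinase that AKT inhibits, and RHEB, the GTPase that turns on mTORC1, were higher by log2 fold changes of 1.44, 0.82 and 0.85. EIF4EBP1, a repressor of translation that mTORC1 inactivates, went from 435 ± 9.15 to 215 ± 8.26 FPKM. AKT1 was lower by a log2 fold change of -1.47 and RPS6KB2, an S6 kinase, by -0.72. AKT2, named after its values were seen, was also lower, from 225 ± 15.0 to 135 ± 7.66 FPKM. AKT1 and TSC1 were picked by the study from these same libraries, so they are no independent evidence of a direction.

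In the RAS and ERK list, some paralogs moved in opposite directions. All 15 genes were tested, with 5 higher, 7 lower and 3 short of the threshold. The shares over all genes tested were 34.2% higher and 38% lower. MAP2K1 rose from 73.4 ± 1.74 to 167 ± 9.69 FPKM while its paralog MAP2K2 fell from 180 ± 4.79 to 120 ± 11.3 FPKM. MAPK3, the gene of ERK1, fell from 115 ± 7.69 to 59.0 ± 2.71 FPKM. BRAF rose by 1.01 while ARAF had a log2 fold change of -0.55.

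FOXO factors, which AKT keeps out of the nucleus, and their known targets were 16 genes, of which 12 were tested. Of these, 7 were higher, 4 were lower and 1, FOXO1, was short of the threshold (median log2 fold change 0.94). Over all genes tested, 34.2% were higher and 38% lower, and the median was -0.066. CCNG2, an atypical cyclin linked to cell cycle arrest, went from 3.96 ± 0.290 to 44.0 ± 2.09 FPKM, and FBXO32, the ubiquitin ligase atrogin-1, from 1.47 ± 0.281 to 30.1 ± 3.59 FPKM. BCL6, a transcriptional repressor, was higher by a log2 fold change of 1.83. CDKN1B, the gene of the cell cycle inhibitor p27, was lower (29.2 ± 1.16 to 11.1 ± 0.982 FPKM, log2 fold change -1.36), as were FOXO6 (-1.86) and KLF15 (-0.40). CCNG2, FOXO4 and BCL2L11 of this list were among the genes that the study picked from these libraries. These 3 genes are therefore no independent evidence of a direction. IRS2 and INSR, both higher here, are also known as FOXO targets in other cells. Their windows held no GTAAACA, but only 2.98% of all windows held it, and a link to FOXO was not tested.

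The 3 IGF2 mRNA-binding proteins, which bind IGF2 and many other transcripts, did not share a direction. IGF2BP2 rose from 37.0 ± 1.10 to 73.5 ± 6.26 FPKM (log2 fold change 0.98, adjusted p = 8.89e-07). IGF2BP3 had a log2 fold change of -0.28 (adjusted p = 0.00724). IGF2BP1 was at 165 ± 8.69 and 167 ± 11.6 FPKM and did not pass the test (adjusted p = 0.888).

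Over all 108 genes of the IGF pathway outside the 10, 81 were tested, with 39 higher, 32 lower and 10 short of the threshold. Their median log2 fold change was 0.28. Of all genes tested, 34.2% were higher and 38% lower, with a median of -0.066. Rescaled to TPM, 47 of the 81 were higher and 24 lower, so the balance of directions depends on the scaling. ADAM28, PIK3CD and SHC2 passed the filter through 1 group only, and without them 37 of 78 were higher and 31 lower.

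**Figure D4:**
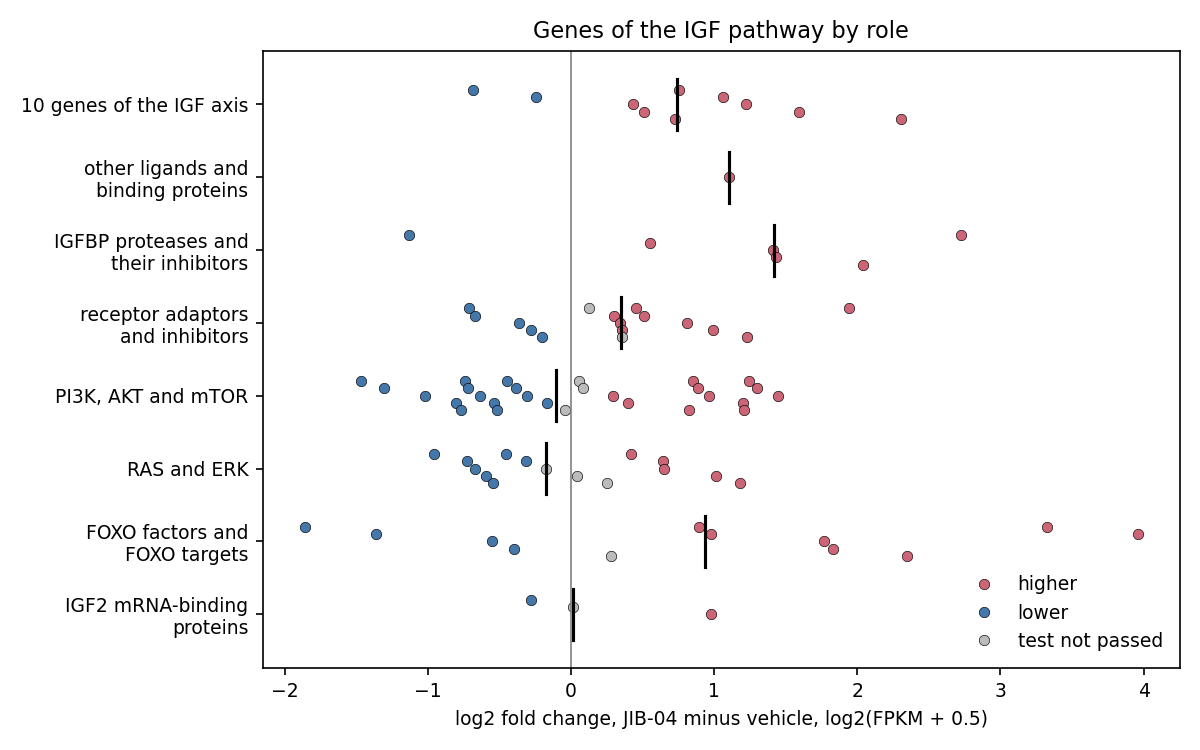
Log2 fold change (JIB-04 minus vehicle) of every tested gene by role, with higher, lower and not passed genes in red, blue and gray and a line at each list's median. The 10 genes of the IGF axis have 8 points above 0 and 2 below, while the PI3K, AKT and mTOR list and the RAS and ERK list have medians of -0.10 and -0.18.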

How the data were processed

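Reads were aligned by the authors with GSNAP, on the GRCh38 build, and handled with SAMtools. The deposited FPKM values are their Cufflinks estimates per gene for each of the 8 libraries. The library kit kept strand, and whether Cufflinks used it is not stated. The labels give single-end reads of 151 bp, and the methods of the study give another length. The FPKM were used as deposited: the table has 66095 entries for 65975 identifiers, 117 identifiers with more than 1 entry were summed, and 13 genes holding a placeholder in place of a value were left out. FPKM do not give the depth, and the precision rests on how far libraries of a group spread.

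Groups came from the sample titles. Genes averaging 1 FPKM or more across all 8 libraries were tested as log2(FPKM + 0.5) with limma 3.58.1 (trended eBayes) in R 4.3.3, with Benjamini-Hochberg adjustment over all genes tested and a threshold of 0.05. A fold change is thus on a scale that understates low genes. The method was tested on simulated data in which few genes changed, so that test does not cover a change as widespread as the one seen here. The exact permutation test was two-sided. Tables and figures used Python 3.11.15, pandas 2.3.3, numpy 2.4.6 and matplotlib 3.10.9. GENCODE release 29 gave positions.

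All 10 genes are named, and from each other list up to 3 higher and 3 lower genes with the smallest adjusted p, except that some genes are not reported here. These genes and lists were chosen with earlier results of these data known. Alternatives were pseudocounts of 0.1 and 1, no filter, a minimum mean of 5 FPKM, TPM, scaling by median ratios or quantiles, analysis of variance of each gene's FPKM as in the study, a replicate block, and each library left out in turn. Rescaling without mitochondrial genes was added after the data had been seen.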

Additional observations from a re-analysis of the deposited data

How the results depend on the processing

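Over 18 alternatives, 175 of 179 values of the 10 genes kept their direction and their side of the threshold, and the 4 that did not were all of IGF1R, whose log2 fold change stayed below 0. The number of genes called lower was 1 (IGFBP2 alone) in TPM, after median-ratio scaling (IGF1R log2 fold change -0.18, adjusted p = 0.0795) and after rescaling without mitochondrial genes, an alternative chosen after seeing the data (-0.16, adjusted p = 0.104). Leaving out each library in turn gave 1 to 2 lower genes, 1 without vehicle library 3. The cause was not tested. With a mean of at least 5 FPKM, IGFBP3 was not tested and 7 genes were higher. The other pathway genes had 35 to 47 higher and 24 to 32 lower, of 71 to 101 tested. The shares of all genes called under each alternative were not taken.

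Libraries of the 2 groups share replicate numbers, but nothing says that a number marks a shared culture or day. To see whether same-numbered libraries deviate together, each gene's group mean was subtracted from its log2 values before libraries were correlated. These correlations of deviations were 0.08, -0.06, 0.03 and -0.0024 for same-numbered libraries. The deviations of vehicle library 1 correlated best with those of JIB-04 library 2 (0.10), so the numbers were not taken as pairs. With the replicate block, 8 of the 10 genes were higher and 2 lower, and 40 and 32 of the other pathway genes, against 39 and 32 without it.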

Other observations

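Transcripts from the loci of the axis itself were near the floor of the table. IGF2-AS was listed at 0 in 3 vehicle libraries and at 0.0264 FPKM in the other, and at 0.544, 0.372, 0.676 and 0.504 FPKM in the JIB-04 libraries. H19, next to IGF2, was listed at 0 in 7 of the 8 libraries. IRAIN, a noncoding transcript of the IGF1R locus, was at 0.422 FPKM with vehicle and 0.588 FPKM with JIB-04, and its values overlapped. None of these was tested, since their means were under 1 FPKM.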
